A study of Mus musculus with 20 samples.

Results

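Myeloid growth factors are the secreted proteins that keep macrophages, dendritic cells and granulocytes alive and drive their production, and each acts through a small set of receptors on those cells. The 10 genes described here are the ligands Csf1, Il34, Csf2, Csf3 and Flt3l and the receptor genes Csf1r, Csf2ra, Csf2rb, Csf3r and Flt3. They were taken by symbol from the gene list of the deposited single-cell tables, where each symbol is 1 of 31053 rows. The question followed through the data is which of the cells profiled from brown adipose tissue held the ligand transcripts and which the receptor transcripts. How both changed with the treatment of the mice was followed as well.

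The tissue was interscapular brown adipose tissue (iBAT) of mice aged 8 to 14 weeks, dissociated and split by magnetic beads into lineage marker positive (Lin+, immune) and lineage marker negative (Lin-, mainly stromal and vascular) cells. Per the study's methods the libraries leave out mature brown adipocytes, so these were not examined as a source of any transcript. Male C57BL/6J mice came from room temperature housing (RT, 24 °C), from 4 days of cold at 6 °C (COLD), or from RT with a 4-day infusion of the beta3-adrenergic agonist CL316,243 (CL, 0.75 nmol per hour), with 2 replicate experiments per treatment. Female mice with loxP-flanked Adrb1, the beta1-adrenergic receptor gene, were studied at RT and in the cold with 1 experiment per group. Their knockouts (KO) carried the tamoxifen-inducible Cre driven by Pdgfra, so that deletion was aimed at stromal cells and not at the whole tissue. Their controls (WT) were floxed mice without Cre, and both groups were given tamoxifen. Each of the 20 libraries pooled 3 to 4 mice. The p-values for the C57 mice therefore measure the spread between 2 pooled experiments per treatment, and the Adrb1 line has no replicate and no test.

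Csf1 and Il34 both bind the receptor tyrosine kinase encoded by Csf1r, which macrophages and monocytes need for survival. Csf2 (GM-CSF) signals through a ligand-specific alpha chain, Csf2ra, paired with the common beta chain, Csf2rb, which also serves interleukin-3 and interleukin-5. Csf3 (G-CSF) acts on Csf3r, the receptor that drives neutrophil production, and Flt3l acts on Flt3, on which dendritic cells depend. In many tissues the ligands come from stromal, endothelial and lymphoid cells and the receptors sit on myeloid cells.

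In the mouse genome (GRCm38, GENCODE annotation) the ligand genes lie at chr3:107741048-107760469 (Csf1, minus strand), chr8:110741829-110805924 (Il34, minus), chr11:54247271-54249667 (Csf2, minus), chr11:98701263-98703629 (Csf3, plus) and chr7:45129788-45136432 (Flt3l, minus). Among the receptors, Csf2ra lies at chr19:61223957-61228429 (minus), Csf2rb at chr15:78325752-78353847 (plus), Csf3r at chr4:126024550-126044440 (plus) and Flt3 at chr5:147330741-147400489 (minus). All are protein-coding genes. Flt3l overlaps a same-strand gene, Gm45713, and Csf2rb has a near-identical neighbour, Csf2rb2. Reads of these pairs may have been split or lost in counting, so that their levels are less certain than the others.

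After filtering, 66339 of 89637 Lin- barcodes and 59935 of 67122 Lin+ barcodes were kept. The libraries held 7857160 to 31325800 corrected counts in Lin- and 9388620 to 41979800 in Lin+, and the median per cell lay between 1204 and 3881 unique molecules (UMIs) in Lin- and between 1864 and 4358 in Lin+. The Lin- library of RT replicate 2 stood apart, with 72.0% of its barcodes over the mitochondrial limit of 10% against 2.89 to 12.8% in the other C57 Lin- libraries, and it had the lowest total. In the Adrb1 line the RT Lin- libraries had 20.6% (WT) and 41.3% (KO) of barcodes over this limit. The Lin+ and Lin- libraries of CL replicate 2 shared 1098 cell barcodes, 17.1% of the smaller library, whereas no other pair shared more than 2.04%. Of these barcodes, 1021 fell in an unnamed Lin+ cluster of stromal genes that enters no class below. Cells were grouped into classes named after the type whose marker genes they raised. Each name therefore stands for "like" that type: adipose stromal cells (ASC1, ASC2, ASC3), endothelial cells of vessels (VEC), mural cells (VSMC/pericyte), group 2 innate lymphoid cells (ILC2), macrophages (MAC1, MAC2, MAC3, and MAC for the 3 together), monocytes (MONO), dendritic cells (DEND1 to DEND4) and neutrophils (NEUT). A level is the gene's share of all counts summed over the cells of a class in 1 library, on the counts-per-million (CPM) scale.

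Within Lin-, stromal cells held most of the Csf1 transcripts. Csf1 reached 224 CPM ± 40.9 in ASC2, 170 ± 41.0 in ASC3 and 142 ± 28.8 in ASC1 (SD over 10 libraries), where ASC2 and ASC3 were further apart than either SD and ASC3 and ASC1 were not. In the C57 mice the 3 ASC classes together supplied a median of 74.4% of the Csf1 counts of Lin- (range 43.3 to 80.6%) from a median of 51.5% of its cells. Outside the stroma, VEC stood at 42.3 CPM ± 19.1, ILC2 at 88.4 CPM ± 18.8 and NEUT at 91.2 CPM ± 55.8. The level in Mast/basophil-like cells, 563 CPM ± 192 (SD, n = 4 libraries with at least 20 such cells), was above all of these, but it rests on 97 counts.

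Il34 had another distribution within the same fraction. VSMC/pericyte cells averaged 134 CPM ± 61.4, Schwann-like cells 107 CPM ± 51.0 and ASC1 75.3 CPM ± 44.8 (SD, n = 10 libraries each), 3 levels that overlapped widely. These SDs include differences between treatments and lines. Within each RT and COLD library of the C57 mice, VSMC/pericyte cells were above ASC1. Il34 in ASC2 was lower, at 33.0 CPM ± 17.6. Because ASC1 was abundant, it still supplied a median of 54.3% of the Il34 counts in Lin- (26.9 to 59.6%), against 14.9% from VSMC/pericyte cells. Lin+ held 138 Il34 counts in all 10 libraries, against 8243 in Lin-.

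Flt3l was spread over lymphoid and stromal cells. The highest mean was in ILC2 (74.6 CPM ± 25.6), followed by NK/T cells of Lin- (55.9 ± 26.95), Treg/activated T cells (47.0 ± 21.7), NK cells (46.5 ± 15.1), ASC3 (43.9 ± 9.63) and T cells (35.4 ± 6.41), each over 10 libraries. No neighbours in this order differed by more than the larger of their SDs. In counts, the ASC classes supplied a median of 64.0% of Lin- Flt3l (28.3 to 71.4%), and ASC1 alone 33.4%.

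Csf2 was the most restricted ligand. ILC2 averaged 283 CPM ± 125 (SD, n = 10 libraries) and supplied a median of 87.3% of the Csf2 counts of Lin- (71.4 to 90.0%) from 1.75% of its cells. This class also raised T cell and gamma-delta T cell markers. In the C57 libraries 5 T cell markers summed to 740 to 1282 CPM in it, against 3064 to 4923 CPM for 5 ILC2 markers. T cells within the class were not set apart. In Lin+, Treg/activated T cells reached 36.3 CPM ± 34.5 and supplied a median of 36.7% of the fraction's Csf2 counts. Mast/basophil-like cells held 165 CPM ± 203 from 25 counts in 4 libraries, a spread as large as the level. Csf3 was barely detected. It had 89 counts in Lin- and 103 in Lin+ over all 10 libraries of each, and no class averaged above 6.24 CPM, so that it was tested in no class.

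**Figure D1:**
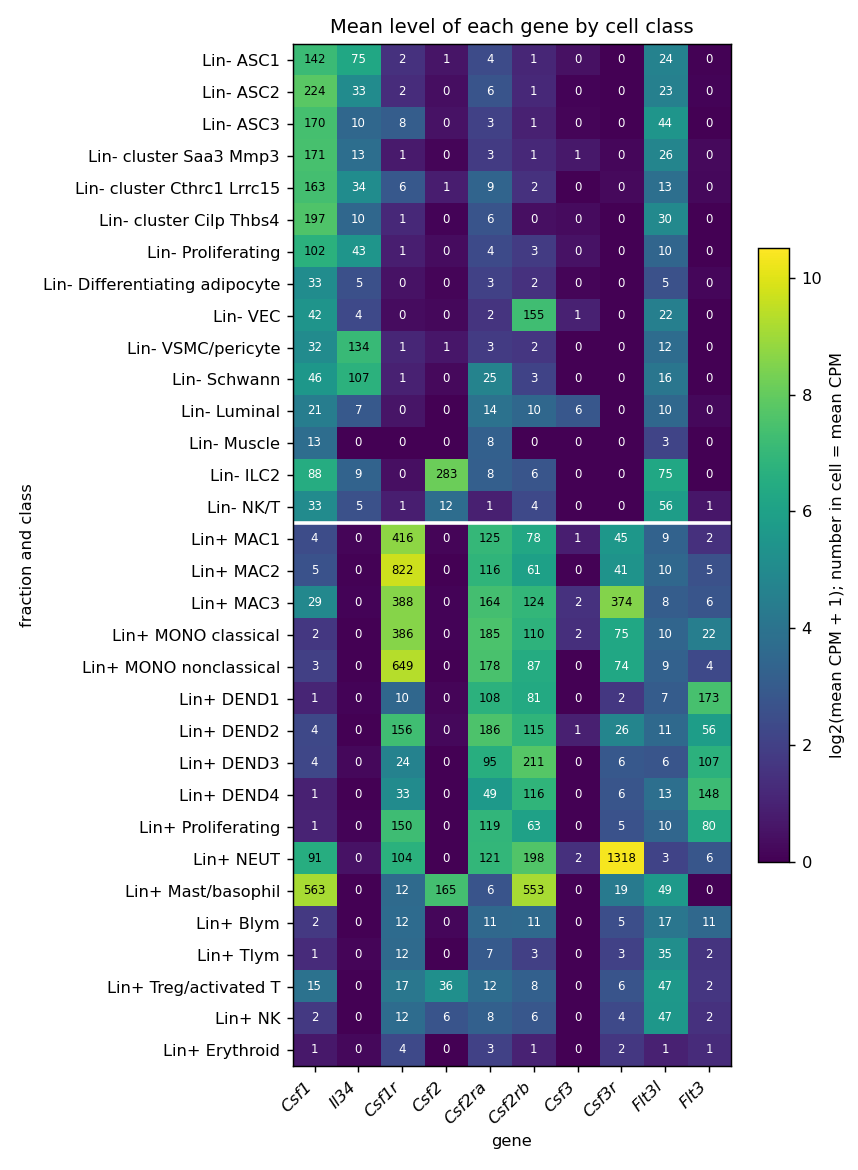
Mean level of the 10 genes (columns) in each class of Lin- and Lin+ cells (rows), as CPM averaged over the libraries with at least 20 cells of the class, on a log colour scale. Csf1 stands out in stromal rows and in the Mast/basophil row (563 CPM from 97 counts), and Il34 in the VSMC/pericyte, Schwann and ASC1 rows. Csf2 stands out in the ILC2 row (283 CPM) and Csf1r in macrophage and monocyte rows (822 CPM in MAC2). Csf3r does so in the NEUT row (1318 CPM) and Flt3 in the dendritic rows (173 CPM in DEND1).

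The receptors lay mainly in Lin+, least so Csf2rb with 16416 counts in Lin+ and 3386 in Lin-. Csf1r, the receptor for Csf1 and Il34, had 44429 counts in Lin+ against 507 in Lin-. Its mean was 822 CPM ± 229 in MAC2, 649 ± 173 in nonclassical MONO, 416 ± 251 in MAC1 (n = 8), 388 ± 115 in MAC3 and 386 ± 79.5 in classical MONO, with 10 libraries unless given, and DEND2 followed at 156 CPM ± 49.6. MAC2 and nonclassical MONO differed by less than 1 SD, as did MAC1, MAC3 and classical MONO. The pooled MAC class supplied a median of 68.9% of Lin+ Csf1r counts (66.0 to 76.5%) from 22.8% of the cells.

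Csf2ra, the ligand-specific chain of the GM-CSF receptor, was spread over the myeloid classes. It averaged 186 CPM ± 44.8 in DEND2, 185 ± 40.6 in classical MONO, 164 ± 32.5 in MAC3, 121 ± 33.4 in NEUT, 116 ± 31.5 in MAC2 and 108 ± 27.2 in DEND1 (n = 8), and of the neighbours in this order only MAC3 and NEUT were further apart than their SDs. The order leaves out nonclassical MONO, which lay at 125 to 178 CPM in the C57 libraries, so that this gap holds for the listed classes only. Csf2rb, the common beta chain, went further afield. Its mean was 553 CPM ± 44.8 in Mast/basophil-like cells (n = 4, 94 counts), 211 ± 32.2 in DEND3 (n = 8), 198 ± 140 in NEUT and 124 ± 55.7 in MAC3. Endothelial cells stood out for this receptor. Csf2rb reached 155 CPM ± 33.9 in VEC (n = 10), and VEC supplied a median of 60.6% of Lin- Csf2rb counts (50.4 to 81.8%) from 12.1% of the cells, where the summed level of 6 macrophage markers was 45.2 to 71.8 CPM in the C57 mice.

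Csf3r marked neutrophils. NEUT averaged 1318 CPM ± 807 (SD, n = 10 libraries), MAC3 374 ± 463 and MONO 75.3 ± 33.1, and all of Lin- held 5 Csf3r counts. In the C57 mice MAC3 supplied a median of 25.8% of Lin+ Csf3r counts and NEUT 27.8%, although many MAC3 cells at RT also carried neutrophil markers, with values given beside the Csf3r comparison. Flt3 marked dendritic cells. It averaged 173 CPM ± 28.8 in DEND1 (n = 8), 148 ± 65.6 in DEND4, 107 ± 16.1 in DEND3 (n = 8), 80.3 ± 30.9 in the cycling class of Lin+ (n = 8) and 56.2 ± 20.9 in DEND2. DEND1 supplied a median of 37.1% of Lin+ Flt3 counts (31.4 to 43.1%) from 2.59% of the cells.

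The genes whose level followed each member most closely were found over the means of 28 classes, among 8431 genes. These are descriptions over class means of the same libraries. For Csf1r the closest were Clec4a1 (Pearson r = 0.976), Clec4a3 (0.975) and Clec4a2 (0.972), C-type lectins of myeloid cells, and Adgre1 (0.963), which encodes the macrophage antigen F4/80. For Csf3r they were Trem1 (0.988) and Slfn4 (0.983), and for Flt3 Clec9a (0.930), a marker of type 1 dendritic cells. Csf2 followed Il13 (0.926) and Il4 (0.850), cytokines of type 2 immunity. Csf2rb was closest to its own paralog Csf2rb2 (0.921), Csf2ra to Pira2 (0.914) and Il34 to Nr2f1 (0.963). No gene came above 0.820 for Csf1, whose closest was Fam124a, or above 0.862 for Flt3l, whose closest was Fam189b.

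Treatment was compared in the C57 mice within each class that had at least 20 cells in all 6 libraries of its fraction, with edgeR's quasi-likelihood test on the summed counts and Benjamini-Hochberg adjustment over all genes of the class. The 10 genes gave 87 pairs of gene and class, 25 in Lin- and 62 in Lin+. In COLD against RT, 7 of the 87 pairs passed an adjusted p of 0.05, all of them lower in COLD. Over all genes and classes 5.81% of tests passed, 2.93% as higher and 2.88% as lower, so that the members' share of 8.05% was near the background for either direction. As all 7 were lower, the same 8.05% stands beside 2.88% for lower calls, a difference that was not tested. The median log2 change of the members was -0.24 against 0.0015 for all genes, and 55 of 87 pairs were below 0. The 7 pairs were Flt3l in ASC1, Csf1r in MAC, MAC3 and DEND2, Csf2ra in DEND2, and Csf3r in MAC and MAC3. MAC3 is part of MAC, so that these are not 7 separate sets of cells. In CL against RT 2 of 87 pairs passed (background 0.688%), Flt3l in ASC1 and Csf2ra in MAC2, both lower in CL. In COLD against CL 2 of 87 pairs passed (background 0.755%), Csf1r in MAC and in the cycling class, both lower in COLD. COLD against RT and CL against RT share the RT libraries.

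**Figure D2:**
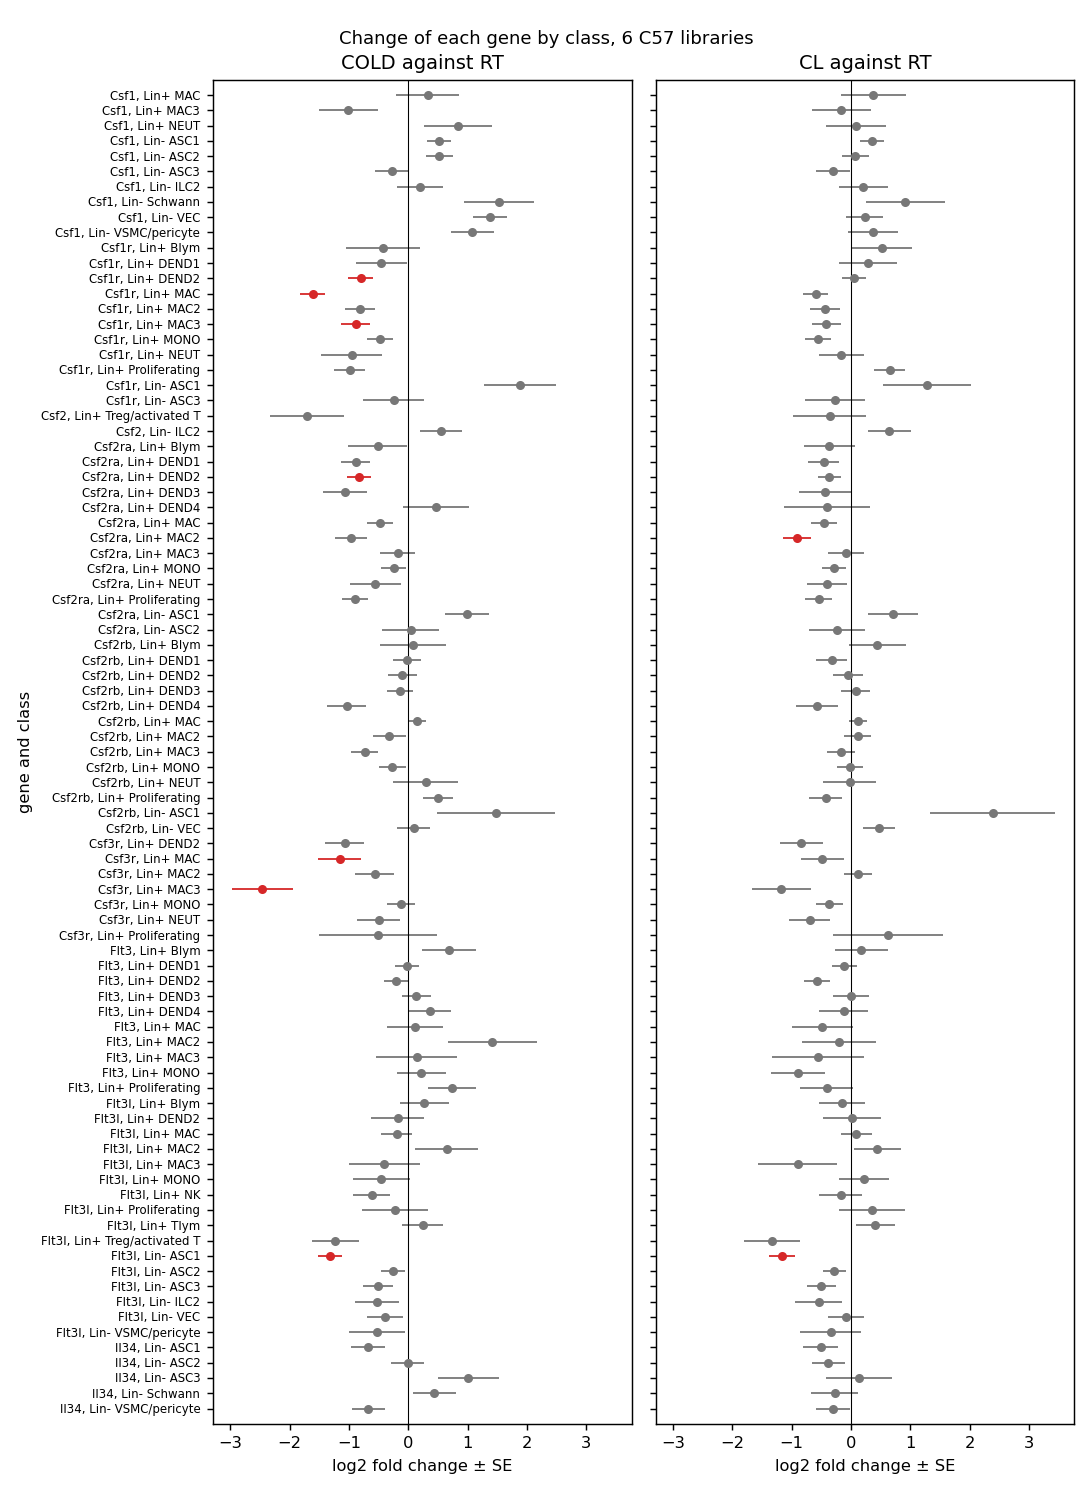
Log2 fold change with its SE (edgeR, 6 C57 libraries) of each of the 87 pairs of gene and class, for COLD against RT and CL against RT, with pairs past an adjusted p of 0.05 in red. The 7 red points of COLD against RT all lie below 0, between -0.80 and -2.46, and 2 points of CL against RT are red.

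Flt3l, the dendritic cell growth factor, was the ligand that changed. In ASC1 its level was 42.0 and 62.0 CPM at RT, 16.3 and 20.2 in COLD, and 18.8 and 19.9 with CL. Both RT libraries were above all 4 treated libraries. Flt3l in ASC1 fell by 1.32 ± 0.20 (SE) on the log2 scale in COLD (adjusted p = 0.00438) and by 1.16 ± 0.22 with CL (adjusted p = 0.0440), where 11.3% and 1.09% of all genes tested in ASC1 passed. The CL call was lost without the shared barcodes of CL replicate 2 (-1.14, adjusted p = 0.0788), without CL replicate 1 (adjusted p = 0.193), without RT replicate 1 (0.133) and without RT replicate 2 (0.157). The COLD call remained in 17 of 19 alternatives, among them without RT replicate 2 (-1.39, adjusted p = 0.0250), the Lin- library with most barcodes over the mitochondrial limit.

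The make-up of ASC1 moved with treatment as well. A cluster led by Cxcl9 and Timp1 made up 4.70 and 7.31% of ASC1 cells at RT, 87.5 and 91.5% in COLD, and 67.5 and 37.3% with CL. The summed level of the 5 ASC1 markers was 11220 and 14870 CPM at RT, 3164 and 2944 in COLD, and 3953 and 6168 with CL, while 5 T cell markers together reached at most 2.70 CPM. Within the Cxcl9 and Timp1 cluster alone the Flt3l difference was -1.44 in COLD (adjusted p = 0.116), and within the other ASC1 cluster, led by Smoc2 and Cxcl14, -0.84 (adjusted p = 0.177). The part of this shift in the Flt3l result was not tested beyond these values.

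Other sources of Flt3l did not pass. ASC2 stood at 27.2 and 35.8 CPM at RT and 29.7 and 21.04 in COLD (log2 change -0.25, adjusted p = 0.758), and ASC3 at 47.6 and 60.0 against 38.2 and 35.8 (-0.51, adjusted p = 0.763). The COLD response of Flt3l in ASC1 was lower than that in ASC2 (difference -1.07 ± 0.24 on the log2 scale, adjusted p = 0.0141). Of all such COLD differences 5 of 39 passed among the members and 7.28% among all genes, or 5 of 78 and 4.04% with the CL differences added, none of which passed for a member. The ASC1 response was not shown to differ from that in ASC3 (-0.80, adjusted p = 0.0510). The ASC2 difference was lost without COLD replicate 1 (-0.74, adjusted p = 0.158), RT replicate 1 (0.0672) or RT replicate 2 (0.0505). In Treg/activated T cells Flt3l was 94.7 and 68.2 CPM at RT, 46.0 and 34.1 in COLD and 14.96 and 38.5 with CL, with RT again highest, but the COLD change of -1.23 ± 0.39 had an adjusted p of 0.208. ILC2 libraries overlapped, at 63.8 and 139 CPM at RT against 75.3 and 64.6 in COLD.

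**Figure D3:**
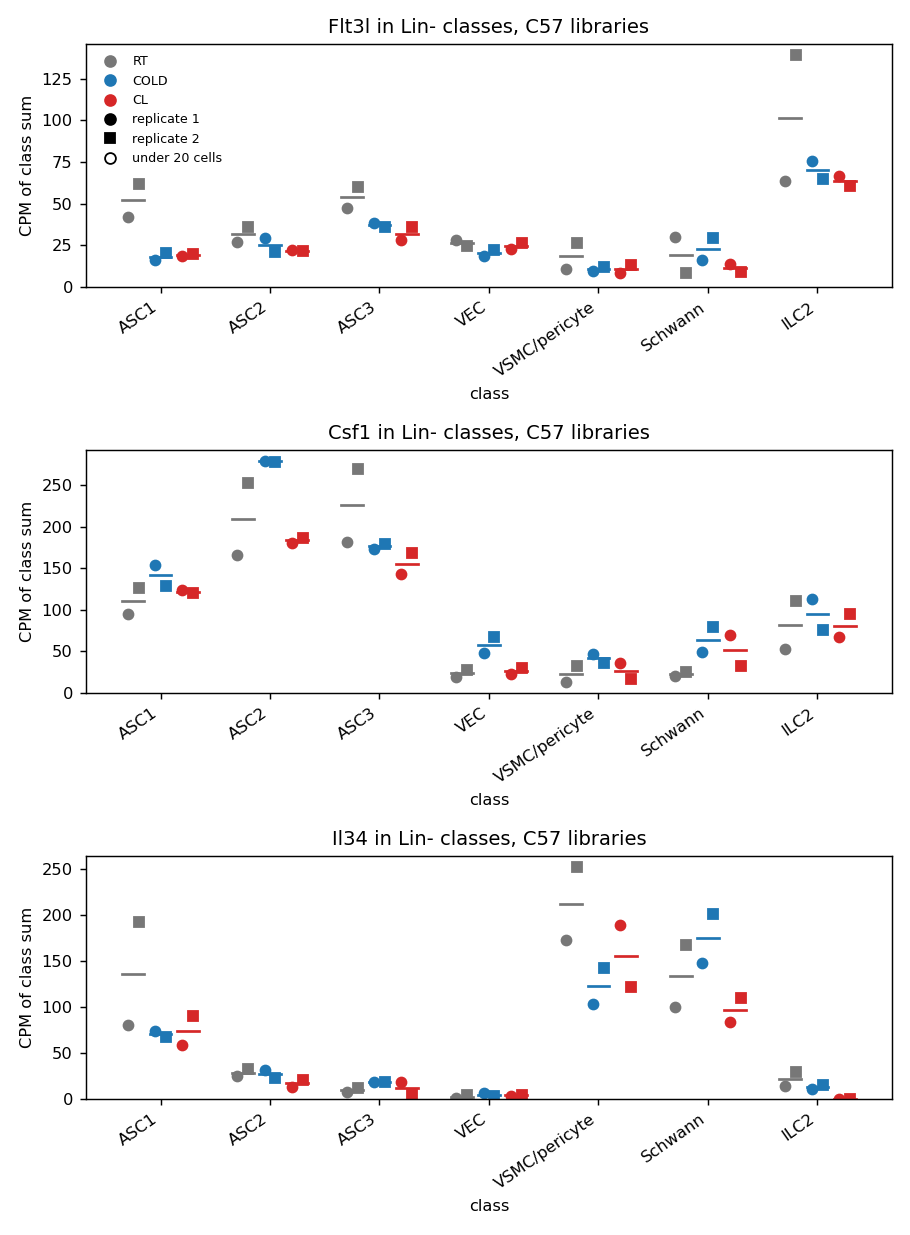
Level (CPM) of Flt3l, Csf1 and Il34 in 7 classes of Lin- cells, 1 point per C57 library with at least 20 cells, by treatment. In ASC1 the RT points of Flt3l (42.0 and 62.0 CPM) lie above all COLD and CL points, which span 16.3 to 20.2 CPM, whereas Csf1 in ASC1 is slightly higher in COLD (154 and 129 CPM) than at RT (94.8 and 126) and Il34 in ASC1 overlaps between RT and CL.

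Csf1, the main macrophage growth factor, passed in no class. In ASC1 it was 94.8 and 126 CPM at RT, 154 and 129 in COLD and 124 and 120 with CL, with COLD highest by a narrow margin (log2 change in COLD 0.51 ± 0.20, adjusted p = 0.138). ASC2 showed 166 and 252 CPM at RT against 279 and 278 in COLD (0.53, adjusted p = 0.493), and ASC3 181 and 270 against 173 and 179 (-0.28, adjusted p = 0.917). In VEC, both COLD libraries (48.0 and 66.6 CPM) exceeded RT (19.1 and 28.01) and CL (22.4 and 30.0), with a log2 change of 1.38 ± 0.28 whose unadjusted p of 0.00103 became 0.146 over the 10209 genes tested in VEC. The summed level of 5 erythroid markers in VEC was also highest in COLD, at 5500 and 5290 CPM against 3365 and 520 at RT and 4622 and 1601 with CL, and its part was not tested. VSMC/pericyte cells had a like pattern, at 13.1 and 32.3 CPM at RT and 46.6 and 36.4 in COLD (1.08, adjusted p = 0.321). The difference in COLD response between ASC1 and ASC3 passed for Csf1 (0.76 ± 0.18 higher in ASC1, adjusted p = 0.0195). It was lost without COLD replicate 1 (0.63, adjusted p = 0.184), COLD replicate 2 (0.0639), RT replicate 1 (0.0764) or RT replicate 2 (0.167).

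Il34, the second ligand of Csf1r, also passed in no class. In ASC1 the libraries were at 80.3 and 192 CPM at RT, 73.7 and 66.9 in COLD and 58.1 and 89.6 with CL. The RT libraries differed from each other by more than RT replicate 1 differed from any treated library, and the COLD change was -0.69 ± 0.29 (adjusted p = 0.160), or -0.39 without RT replicate 2 (adjusted p = 0.520). VSMC/pericyte cells held 173 and 252 CPM at RT against 103 and 142 in COLD (-0.68, adjusted p = 0.499), and Schwann-like cells 99.5 and 167 against 148 and 201 (0.44, adjusted p = 0.735). In the Cxcl9 and Timp1 cluster of ASC1 alone, which held 62 and 86 cells at RT, Il34 was lower in COLD (-1.35, adjusted p = 0.0212) and with CL (-1.56, adjusted p = 0.0285), a comparison chosen after the data were seen. In the Smoc2 and Cxcl14 cluster alone the Il34 change was -0.37 in COLD (adjusted p = 0.691) and -0.12 with CL (adjusted p = 0.998).

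Csf2, the GM-CSF gene, passed in no class of the C57 mice. ILC2 held 223 and 278 CPM at RT, 457 and 330 in COLD and 390 and 384 with CL. Both RT libraries lay below all 4 treated libraries, and COLD and CL overlapped, but the COLD change of 0.56 ± 0.35 had an adjusted p of 0.911 and only 0.0887% of genes passed in this small class. The summed level of 6 ASC markers in ILC2 was also lowest at RT, at 4729 and 3047 CPM against 6913 and 4913 in COLD and 8348 and 9547 with CL, and its part in the Csf2 values was not tested. Csf2 in Treg/activated T cells went the other way in COLD, from 54.1 and 31.2 CPM to 7.07 and 22.8 (-1.71, adjusted p = 0.315).

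Csf1r, the receptor of Csf1 and Il34, fell in the macrophages of cold-exposed mice. In the pooled MAC class its level was 822 and 894 CPM at RT, 286 and 250 in COLD and 530 and 593 with CL. The 3 treatments did not overlap, and CL lay between the other two. Csf1r in MAC fell by 1.61 ± 0.22 on the log2 scale from RT to COLD (adjusted p = 0.00112), where 34.1% of all genes tested in MAC passed, and this call held in all 17 alternatives. COLD was also below CL (-1.02 ± 0.21, adjusted p = 0.0264, background 6.07%). That call was lost without COLD replicate 1 (-1.11, adjusted p = 0.190), COLD replicate 2 (0.277), RT replicate 1 (0.0610) or RT replicate 2 (0.0612).

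The 3 macrophage classes traded places between treatments. MAC2, the class with the highest Csf1r, was 86.8 and 83.1% of MAC cells at RT, 5.31 and 2.92% in COLD, and 48.4 and 56.1% with CL. MAC1 was 1.08 and 2.00% at RT against 55.7 and 64.3% in COLD, and MAC3 12.1 and 14.9% against 39.0 and 32.8%. Within MAC2 and MAC3 the differences were smaller than in the pool. In MAC3, Csf1r went from 511 and 466 CPM at RT to 282 and 271 in COLD, with CL between at 362 and 402 (-0.88 ± 0.25, adjusted p = 0.0392, background 16.6%). In MAC2 it went from 897 and 1021 CPM to 652 and 559, with 715 and 779 under CL, in the same order, but the COLD change of -0.82 ± 0.26 had an adjusted p of 0.0923. MAC1 had 9 and 17 cells at RT and was not tested; it held 264 and 230 CPM of Csf1r in COLD against 427 and 423 with CL.

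The MAC3 call for Csf1r was lost without COLD replicate 1 (adjusted p = 0.206), COLD replicate 2 (0.211), RT replicate 1 (0.177) or RT replicate 2 (0.149). It was also lost without cells over 2% neutrophil-marker UMIs (-0.77, adjusted p = 0.0619). MAC3 held monocyte transcripts as well. Its summed level of 8 MONO markers was 3770 and 4908 CPM at RT, 6224 and 5424 in COLD and 7389 and 6309 with CL. That of 6 MAC markers was 2304 and 3035 CPM at RT, 5034 and 5488 in COLD and 5047 and 3420 with CL. The part of monocyte-like cells in the MAC3 result was not tested. In the MAC2 cluster led by Lyve1 and Cd209f alone, a comparison chosen after the data were seen, Csf1r was lower in COLD (-1.11, adjusted p = 0.0366), while in the Mgl2 and Vcam1 cluster alone its change was -0.60 (adjusted p = 0.465).

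Csf1r in DEND2, dendritic-like cells marked by Cd209a and Clec10a, was 201 and 152 CPM at RT, 117 and 115 in COLD and 200 and 206 with CL. COLD was lowest, and the change from RT was -0.80 ± 0.20 (adjusted p = 0.0346, background 12.2%). The summed level of 6 macrophage markers in DEND2 moved the other way, from 1299 and 1291 CPM at RT to 2245 and 1879 in COLD, and was 3408 and 2409 with CL. The sum of 6 MAC2 markers was 874 and 509 CPM at RT, 301 and 191 in COLD and 678 and 690 with CL, and that of 6 NEUT markers was 851 and 781 CPM at RT, 19.3 and 18.6 in COLD and 34.6 and 399 with CL, with no marker of these lists at 0. Both sums were lowest in COLD, as Csf1r was, and their part in the result was not tested. In a finer clustering (Leiden resolution 2) DEND2-like cells divided further. A cluster led by Retnla and Lyz1 held 90 and 95 cells at RT, 118 and 84 in COLD and 159 and 130 with CL. Another, led by Cd209a, held 101 and 113, 867 and 668, and 270 and 146 in the same order. A further one, led by Cxcl10 and Ifit1bl1, held 2 and 3 cells at RT, 125 and 77 in COLD and 8 and 2 with CL. The part of this shift was not tested either. Among genes called in DEND2, 46.2% were higher in COLD, or 66.3% when counts were scaled by library totals alone. The DEND2 call for Csf1r was lost with library totals (-0.60, adjusted p = 0.0772), and without COLD replicate 1 (adjusted p = 0.207), COLD replicate 2 (0.184) or RT replicate 1 (0.178). In the cycling class of Lin+, Csf1r was 103 and 62.8 CPM in COLD against 283 and 231 with CL and 126 and 172 at RT. COLD was below CL (-1.64 ± 0.24, adjusted p = 0.0156, background 1.82%). This class joined 2 clusters, and the one with MAC2 markers held 129 and 97 of 437 and 385 cells in COLD but 292 and 53 of 389 and 85 with CL. The call was lost without COLD replicate 2 (-1.36, adjusted p = 0.153).

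Monocytes changed less than the pooled MAC class for this gene. The make-up of MAC shifted between treatments as given above, and no single macrophage class was tested against MONO. The part of that shift in the differences that follow was not tested. Csf1r in MONO was 512 and 561 CPM at RT, 368 and 453 in COLD and 352 and 416 with CL, with RT highest but a COLD change of only -0.47 (adjusted p = 0.272). The response to COLD in MAC was below that in MONO (difference -1.19 ± 0.19, adjusted p = 0.000503), which held in all 15 alternatives, and below that in DEND2 (-0.90 ± 0.18, adjusted p = 0.00457), which was lost without COLD replicate 2 (-0.82, adjusted p = 0.0945) or RT replicate 2 (-0.64, adjusted p = 0.116).

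**Figure D4:**
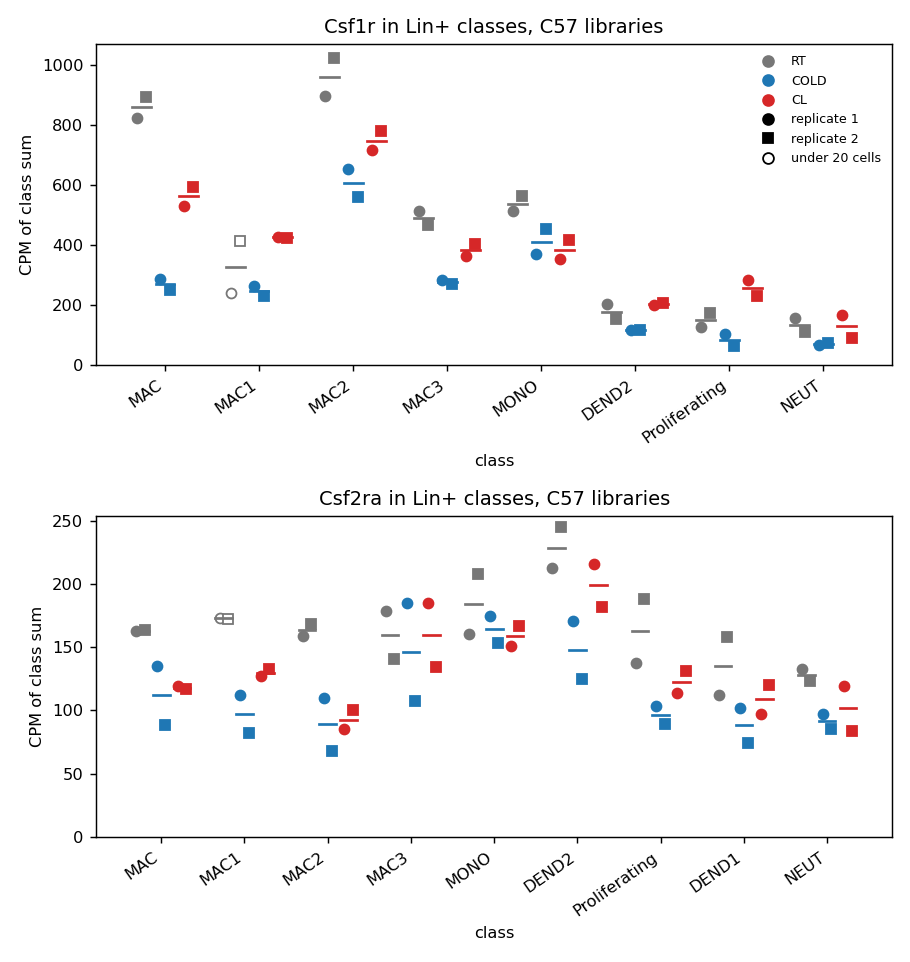
Level (CPM) of Csf1r and Csf2ra in myeloid classes of Lin+ cells, 1 point per C57 library by treatment, with open points for classes of under 20 cells. For Csf1r in MAC the RT points (822 and 894 CPM) lie above CL (530 and 593) and CL above COLD (286 and 250), while Csf2ra in DEND2 is lowest in COLD (171 and 125 CPM).

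Csf2ra, the GM-CSF receptor alpha chain, moved in dendritic cells and macrophages. In DEND2 it was 212 and 245 CPM at RT, 171 and 125 in COLD and 216 and 182 with CL. COLD was lowest (-0.83 ± 0.20, adjusted p = 0.0281), as were the MAC2 and NEUT marker sums of DEND2 given for Csf1r, whose part in this result was not tested. The shift between clusters of DEND2 given there was not tested here either. The call was lost with library totals (-0.63, adjusted p = 0.0838) and without COLD replicate 1 (0.0862), COLD replicate 2 (-0.65, 0.241), RT replicate 1 (0.0762) or RT replicate 2 (0.0943). In MAC2 it was 159 and 168 CPM at RT, 110 and 68.1 in COLD, and 85.1 and 100.1 with CL, so that RT was highest. The CL change was -0.90 ± 0.24 (adjusted p = 0.0454, background 4.16%) and the COLD change -0.97 (adjusted p = 0.0610). The latter passed with the replicate number as a block (-0.96, adjusted p = 0.0371). The CL call was lost without CL replicate 1 (-0.65, adjusted p = 0.296), COLD replicate 1 (0.0796), COLD replicate 2 (0.0810), RT replicate 1 (0.336) or RT replicate 2 (0.211). The make-up of MAC2 moved with this result. The Lyve1 and Cd209f cluster held 120 of 722 and 110 of 707 MAC2 cells at RT, 78 of 164 and 37 of 57 in COLD, and 1076 of 1419 and 265 of 555 with CL. Csf2ra averaged 77.9 CPM ± 9.48 in that cluster and 139 ± 26.9 in the Mgl2 and Vcam1 cluster (n = 10). Within them, a comparison added after the data were seen, the CL change was -0.24 (adjusted p = 0.678) and -0.57 (adjusted p = 0.315). In DEND1 Csf2ra stood at 112 and 158 CPM at RT against 102 and 74.3 in COLD (-0.89, adjusted p = 0.0569).

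Csf2rb, the common beta chain, passed in no class. Its nearest approach was MAC3, at 122 and 104 CPM at RT, 76.9 and 63.1 in COLD and 117 and 94.5 with CL, where COLD was lowest (-0.74, adjusted p = 0.0575). It passed there with the replicate block (-0.75, adjusted p = 0.0334) and without the cells over 2% neutrophil-marker UMIs (-0.84, adjusted p = 0.0489). In VEC the libraries overlapped, at 105 and 189 CPM at RT, 143 and 146 in COLD and 228 and 124 with CL (COLD change 0.09 ± 0.27, adjusted p = 0.949). Mast/basophil-like cells held 565 and 591 CPM at RT, 867 and 335 in COLD and 695 and 488 with CL, in 11 to 28 cells per library.

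Csf3r, the G-CSF receptor, fell with cold in MAC3, a class that also held neutrophil transcripts. Its level in MAC3 was 309 and 338 CPM at RT, 61.9 and 61.3 in COLD and 65.6 and 223 with CL. RT was above COLD in both replicates, whereas the CL libraries differed more than 3 times. Csf3r in MAC3 fell by 2.46 ± 0.52 in COLD (adjusted p = 0.0179). In MAC it went from 78.1 and 87.2 CPM to 35.8 and 34.9, with 35.8 and 80.3 under CL, so that RT and COLD did not overlap (-1.16 ± 0.36, adjusted p = 0.0342). The MAC3 call was lost without COLD replicate 1 (adjusted p = 0.0626), RT replicate 1 (0.108) or RT replicate 2 (0.124), and the MAC call without COLD replicate 1 (0.107), COLD replicate 2 (0.117), RT replicate 1 (0.125) or RT replicate 2 (0.157).

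Neutrophil markers moved with these values. The summed level of 6 neutrophil markers in MAC3 was 21070 and 32150 CPM at RT, 921 and 4242 in COLD and 4904 and 32440 with CL. Cells with over 2% of their UMIs from these markers were 41.6 and 65.4% of MAC3 at RT, 1.33 and 9.55% in COLD and 8.48 and 51.5% with CL. Without those cells Csf3r in MAC3 was 256 and 214 CPM at RT, 60.7 and 46.2 in COLD and 53.3 and 124 with CL, a COLD change of -2.20 ± 0.39 (adjusted p = 0.00751). In MAC the call was lost without them (-0.59, adjusted p = 0.0678). In NEUT itself Csf3r was 1341 and 1281 CPM at RT, 811 and 1050 in COLD and 668 and 971 with CL, with RT highest and a COLD change of -0.50 ± 0.36 (adjusted p = 0.860). MONO held 63.5 and 64.5 CPM at RT and 55.1 and 71.7 in COLD. The COLD response of Csf3r in MAC was below that in MONO (-1.09 ± 0.27, adjusted p = 0.0130). This difference was lost without the neutrophil-marker cells (-0.54, adjusted p = 0.156), COLD replicate 2 (-0.96, 0.146), RT replicate 1 (-1.19, 0.0873) or RT replicate 2 (-0.96, 0.172).

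**Figure D5:**
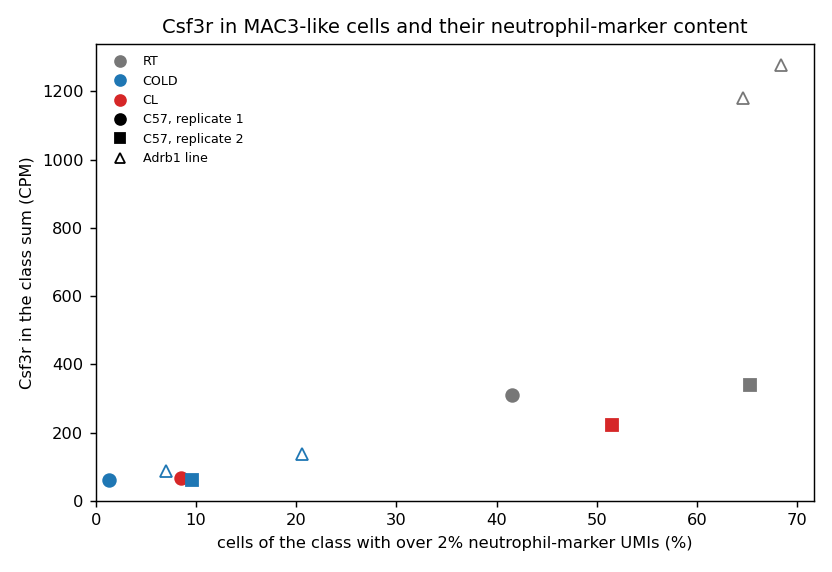
Csf3r level in MAC3 (CPM) against the percent of MAC3 cells with over 2% of their UMIs from 6 neutrophil markers, 1 point per library for all 10 experiments. The 4 COLD libraries lie at the lower left (61.3 to 137 CPM) and the RT libraries of both lines to the right of them.

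Flt3, the receptor for Flt3l, passed in no class. In DEND1 it was 139 and 180 CPM at RT, 187 and 195 in COLD and 212 and 130 with CL (COLD change -0.02 ± 0.20, adjusted p = 0.973). Both COLD libraries were above RT on the CPM scale, which uses library totals, and the COLD change was 0.27 (adjusted p = 0.476) when the fit used totals, which moved the median of all genes in DEND1 by 0.29. DEND2 held 46.0 and 53.5 CPM at RT against 44.8 and 55.1 in COLD, and DEND3 83.1 and 104 against 121 and 117. The cycling class was higher in COLD, at 98.3 and 122 CPM against 55.3 and 64.2 at RT and 33.0 and 73.9 with CL, but did not pass (0.74, adjusted p = 0.420). The cycling cluster with DEND1 markers held 308 of 437 and 288 of 385 of these cells in COLD, 35 of 58 and 28 of 58 at RT, and 97 of 389 and 32 of 85 with CL, and the part of this shift was not tested.

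Over the whole Lin+ fraction Flt3 did differ. It was 28.3 and 23.4 CPM at RT, 50.7 and 56.5 in COLD and 19.3 and 18.6 with CL, with COLD above both other groups and a rise of 1.10 ± 0.19 (adjusted p = 0.0356, background 5.25% over both whole fractions). That background includes Lin-, so it is not the share of Lin+ genes alone. DEND1 numbered 139 and 105 cells at RT, 708 and 534 in COLD and 150 and 119 with CL. In such whole-fraction sums, a change in the share of cells of a type and a change in RNA per cell cannot be told apart. Csf1r was the only other member that passed there, at 266 and 289 CPM at RT, 163 and 129 in COLD and 366 and 231 with CL (-0.88 ± 0.20, adjusted p = 0.0451). Both whole-fraction calls were lost without COLD replicate 1 (0.217 for Flt3 and 0.253 for Csf1r), COLD replicate 2 (0.225 and 0.257), RT replicate 1 (0.226 and 0.227) or RT replicate 2 (0.107 and 0.132). Flt3l in whole Lin- stood at 34.4 and 46.2 CPM at RT, 14.3 and 18.7 in COLD and 17.2 and 21.5 with CL, with RT highest (-1.13, adjusted p = 0.0921).

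The Adrb1 line gave single values at each temperature. All of its RT libraries were made with a later version of the reagent kit than the others. The study's methods also put the collection of its treatments on separate days. Kit, day and temperature therefore cannot be told apart in it. Adrb1 itself had 14 counts at RT and 47 in COLD in the ASC classes of WT, against 0 and 6 in KO. Csf1r in MAC was 798 CPM (95% Poisson interval 756 to 840, counting error only) in WT at RT and 235 (226 to 244) in WT COLD, against 923 (878 to 968) and 337 (321 to 354) in KO. Both genotypes were lower in COLD. MAC2 made up 41.3% of MAC cells at RT and 12.5% in COLD in WT, and 56.7 and 14.9% in KO, and the part of this shift was not tested. Csf1r in MONO was 728 and 707 CPM at RT against 329 and 369 in COLD, in WT and KO respectively.

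Flt3l in ASC1 was low at both temperatures in this line, set beside the C57 libraries. The C57 mice differ from this line in sex and tamoxifen as well as in line, and at RT in kit version. It was 17.7 CPM (12.0 to 25.1) in WT at RT, 13.7 (11.6 to 16.1) in WT COLD, 16.8 (10.6 to 25.2) in KO at RT and 14.4 (11.7 to 17.5) in KO COLD, values within the range of the treated C57 libraries or below it. The Cxcl9 and Timp1 cluster was already 44.7% of ASC1 in WT and 49.9% in KO at RT. Csf3r in MAC3 went from 1278 to 87.2 CPM in WT and from 1181 to 137 CPM in KO, while cells over 2% neutrophil-marker UMIs went from 68.4 to 7.01% and from 64.6 to 20.6% of MAC3. In NEUT, Csf3r was 2650 and 2905 CPM at RT against 592 and 913 in COLD. Csf2ra in DEND2 was 195 CPM in WT at RT and 104 in COLD, and 232 and 182 CPM in KO. Csf1 in VEC was 40.5 CPM in WT at RT and 76.2 in COLD, and 36.1 and 55.8 CPM in KO. Csf2 in ILC2 was 223 CPM (174 to 281) in WT at RT and 149 (111 to 196) in COLD. In KO it was 45.4 CPM (12.4 to 116) at RT, from 4 counts in 42 cells, and 352 (285 to 430) in COLD.

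The wider pathway was read from 33 genes of beta-chain relatives, the kinase Kit and its ligand, JAK-STAT signalling and its feedback, receptor-proximal signalling, and myeloid transcription factors. In COLD against RT, 15 of 452 gene and class tests were higher and 22 lower (8.19% passed, against 5.81% of all genes). CL against RT gave 2 higher and 4 lower (1.33%, against 0.688% of all genes), and COLD against CL 1 higher and 5 lower (1.33%, against 0.755%). In COLD against RT, 1 test of the JAK-STAT genes was higher and 9 lower of 164 (6.10% passed, near the 5.81% of all genes). The transcription factors divided, with 8 higher and 7 lower of 130, and the receptor-proximal genes gave 4 and 4 of 116.

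The tests named for COLD are the 8 with the smallest adjusted p, which include no transcription factor that was higher in COLD. Of all genes tested in COLD against RT, 34.1% passed in MAC, 12.2% in DEND2 and 11.3% in ASC1. MAC moved from mainly MAC2 at RT to MAC1 and MAC3 in COLD. Its NEUT marker sum was 4022 and 6708 CPM at RT against 320 and 1233 in COLD. The part of these shifts in the MAC results was not tested. Among transcription factors, Irf4 fell by 2.44 ± 0.33 in MAC (adjusted p = 0.00123), Runx1 by 1.48 in MAC (adjusted p = 0.00144), and Batf3, a factor of type 1 dendritic cells, by 1.51 in MAC (adjusted p = 0.00382) and by 1.54 in DEND2 (adjusted p = 0.00617), all in COLD. Cish, a feedback inhibitor of STAT5, went from 37.2 and 25.9 CPM at RT to 9.64 and 7.20 in COLD in DEND2 (-2.07, adjusted p = 0.00459). There the MAC2 and NEUT marker sums were also lowest in COLD and the clusters of DEND2 shifted, and the part of both was not tested. Stat5b, which transmits beta-chain signals, fell by 0.95 in MAC (adjusted p = 0.00599). Kitl, the ligand of Kit, fell by 1.99 in MAC in COLD (adjusted p = 0.00160) and rose by 1.36 in ASC1 with CL (adjusted p = 0.0195). Pim1, a STAT-induced kinase, rose in ASC1 by 1.42 in COLD (adjusted p = 0.00208) and by 1.02 with CL (adjusted p = 0.0385). The share of the Cxcl9 and Timp1 cluster in ASC1 also rose with both treatments, and its part in the Kitl and Pim1 results was not tested.

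With CL, Socs1, a feedback inhibitor of JAK kinases, fell by 1.28 in MAC (adjusted p = 0.0244) and by 1.28 in MAC2 (adjusted p = 0.0271), and Runx1 fell by 1.06 in MAC (adjusted p = 0.0319) and by 1.03 in MAC2 (adjusted p = 0.0379). In COLD against CL, Irf4 and Kitl were lower in MAC (-1.498 and -1.38, adjusted p = 0.0310 and 0.0231), and Socs1 was higher by 1.10 (adjusted p = 0.0193). The make-up of MAC and MAC2 also differed between the treatments compared, and its part was not tested. Tyrobp, an adaptor of myeloid and NK cell receptors, was lower in COLD than with CL in B cells (-1.71, adjusted p = 0.00520) and T cells (-2.53, adjusted p = 0.0107). The summed level of 6 NEUT markers over all Lin+ cells was 218 and 1124 CPM in COLD and 2392 and 9336 with CL. Free RNA or stray cells of other types may add to Tyrobp in B and T cells, which was not tested.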

How the data were processed

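Stromal and immune cells of mouse iBAT were profiled by droplet single-cell RNA sequencing in 20 libraries. Per the labels and the study's methods, reads were aligned to mm10 and counted with Cell Ranger 3.0.1. Before they deposited the tables, the authors removed background RNA with SoupX 1.0.1, using Fabp4 and Car3 as genes that most cells do not express. The values that the authors deposited are therefore each an estimated count that need not be whole, and between 0.505 and 4.01% of the entries above 0 in a library were whole. Correction with preset genes can leave free RNA of other genes in place. Library kit version 2 was used except for the RT libraries of the Adrb1 line (version 3).

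Cells with under 10% mitochondrial UMIs and at most 15000 UMIs were kept, with at most 4000 genes in Lin+ and at least 100 in Lin-. Each fraction was clustered on 2000 variable genes, without the 10 genes, their pathway list and the cell type markers, over 30 principal components corrected by Harmony over 6 cohorts, with Leiden clustering at resolution 1 (scikit-learn 1.9.0, leidenalg 0.10.2, Python 3.11.15). This gave 32 Lin- and 33 Lin+ clusters, named with fixed marker lists, though some names depart from the lists' choice. Lin- clusters led by Saa3 and Mmp3 (3496 cells), Cthrc1 and Lrrc15 (2472) and Cilp and Thbs4 (1478) scored as ASC1 or ASC2. They were kept apart from the ASC classes. A Lin+ cluster of 1441 cells scored as T cells and was named Treg/activated T. Another, of 763 cells, scored as Mast/basophil and was left unnamed. Cell types may therefore differ from those of the study. Doublets were scored against simulated doublets, and the top 6% were left out only as an alternative.

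Counts were summed per class and library, rounded, and tested with edgeR 4.0.16 (quasi-likelihood, TMM factors, filterByExpr, Benjamini-Hochberg over all genes, threshold 0.05; R 4.3.3) in the 6 C57 libraries of a fraction, for classes with at least 20 cells in each. Differences in response between classes were tested with the library as a block. SEs are the log2 change over the square root of F. The scripts were tested on simulated data. Replicate libraries differed by more than sampling noise, at 35.4 to 274 chi-square units per degree of freedom.

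Same-numbered C57 libraries come from 1 replicate experiment per the study's methods. The deviations of same-numbered libraries from their group means correlated at 0.213 (RT and COLD), 0.0235 (RT and CL) and 0.480 (COLD and CL) in Lin-, and at 0.317, 0.197 and 0.384 in Lin+. The fits given have no block, and the blocked fit was an alternative, with DESeq2 1.42.0, library totals, no filter on low counts, other cell filters, Leiden resolution 2, all 8 RT and COLD experiments with a term for the line, and each replicate left out. Intervals and floors cover counting error only.

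The 10 genes, the 33 pathway genes, the marker lists and the alternatives were chosen with earlier results of these data known. The members were named in every class where they reached 20 summed counts, and pathway genes where they passed the test in a class described, at most 8 per comparison by smallest adjusted p. One pathway result is not reported here. Genes like a member were the 5 with the highest Pearson correlation of log2(CPM + 1) over class means. Gene positions are from GENCODE's GRCm38 annotation.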

Additional observations from a re-analysis of the deposited data

Results flagged for a closer look

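In 5 cases the response of a gene to COLD differed between 2 classes of cells by a test of the difference itself. Flt3l fell more in ASC1 than in ASC2, with a difference of -1.067 on the log2 scale (edgeR, adjusted p = 0.0141). Csf1 differed between ASC1 and ASC3 by 0.7634, with the higher change in ASC1 (adjusted p = 0.0195). Csf1r fell more in MAC than in DEND2, by -0.9049 (adjusted p = 0.00457), and more in MAC than in MONO, by -1.189 (adjusted p = 0.000503). Csf3r in MAC and MONO differed by -1.09 (adjusted p = 0.0130). These were 5 of 78 differences tested over both treatments, where 4.04% of all such tests passed, and none of those for CL passed. Only the Csf1r difference between MAC and MONO held when each replicate in turn was left out. MAC is a pool of 3 classes whose shares changed with COLD, and ASC1 a pool of 2 clusters whose shares changed, and the part of these shifts in the differences was not tested.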

How the results depend on the processing

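In CL against RT, 2 pairs of gene and class passed, against 1 with doublets left out, 1 with Leiden resolution 2, 0 with library totals alone, 1 with a mitochondrial limit of 5%, 1 without the shared barcodes of CL replicate 2, and 0 to 6 when 1 replicate was left out. In COLD against CL, 2 passed, against 1 with the limit of 5%, 9 with no filter on low counts and 0 to 6 when 1 replicate was left out. In COLD against RT, 7 passed, against 16 with all 8 RT and COLD experiments and a line term, 16 with no filter and 2 to 15 when 1 replicate was left out. Of the whole-fraction sums 2 passed, against 11 with DESeq2, 0 with the limit of 5%, 9 with no filter and 0 to 18 when 1 replicate was left out. Of the differences between classes 5 passed, against 2 with DESeq2, 13 with no filter and 2 to 13 when 1 replicate was left out. With no filter 185 pairs were tested, and leaving out a replicate leaves a group with 1 library, assumed to vary like the others. With all 8 RT and COLD experiments 72 pairs were tested, and 21324 of 137355 tests over all genes passed. In the Adrb1 line kit version changes with temperature, and the line term cannot remove this from the COLD comparison.

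With the replicate block, 5 whole-fraction sums passed in place of 2 (added: Csf2 at -2.16 and Flt3l at -0.80 in COLD against RT, and Flt3 at 1.52 in COLD against CL), and Csf1r in DEND2 passed in COLD against CL (-0.86, adjusted p = 0.0484). Beside these and the pairs given above, the block changed no call, and 13 of 13 calls remained. All genes called numbered 9409 in COLD against RT (21324 with 8 experiments, 16885 with no filter, 3189 to 14392 when 1 replicate was left out), 1115 in CL against RT (DESeq2 1962, library totals 1835, limit of 5% 665, no filter 7085, block 2447, 426 to 7056 when 1 replicate was left out) and 1224 in COLD against CL (limit of 5% 813, no filter 5771, block 2338, 257 to 3163 when 1 replicate was left out). Csf2rb in whole Lin- reversed in CL against RT without CL replicate 1, from 0.59 to -1.51 (adjusted p = 0.0157; 1.42 without CL replicate 2), since the CL libraries were at 53.6 and 5.48 CPM.

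Of 18 calls, 14 remained with DESeq2 and 18 with only cells of at least 1000 UMIs. Among the calls further lost were Csf2ra in MAC2 with CL under DESeq2 (-0.90, adjusted p = 0.104), with doublets left out (-0.91, 0.0556), with library totals (-0.82, 0.0513) and with the limit of 5% (-0.83, 0.128), Csf1r in MAC3 with doublets left out (-0.79, adjusted p = 0.0618) or no filter (-0.74, 0.0734), Csf1r in the cycling class (-1.44, 0.0976) and in whole Lin+ (-0.81, 0.0714) and Flt3 in whole Lin+ (1.00, 0.0512) with the limit of 5%, Csf3r in MAC (-0.76, 0.0917) and Flt3l in ASC1 with CL (-1.11, 0.0674) with Leiden resolution 2, and Flt3l in ASC1 with CL (-1.41, 0.0956) and Csf1r in whole Lin+ (-0.93, 0.0836) with library totals. With DESeq2 the differences of Csf1 between ASC1 and ASC3 (0.79, adjusted p = 0.271), Csf3r between MAC and MONO (-1.14, 0.0766) and Flt3l between ASC1 and ASC2 (-1.08, 0.195) were lost. The causes were not tested. Library totals moved the median log2 change of all genes by -0.17 in ASC1, 0.29 in DEND1, 0.20 in DEND2 and 0.16 in MAC2 in COLD, and by -0.22 in ASC1 with CL. Depth limits Csf3, Csf2 outside ILC2, and every value of the Mast/basophil-like cells.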

Other observations

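The 4 libraries of the Adrb1 line gave further single values without a test. Il34 in ASC1 was 34.8 CPM in WT at RT and 56.1 in COLD, and 32.9 and 68.8 CPM in KO, whereas the C57 mice had 80.3 and 192 CPM at RT. Csf1 in ASC1 was 160 and 163 CPM in WT and 150 and 196 CPM in KO. Csf2rb in VEC was 160, 145, 147 and 161 CPM in WT RT, WT COLD, KO RT and KO COLD. Csf1r in MAC2 was 1089 CPM in WT at RT and 450 in COLD, and 1126 and 932 CPM in KO, the largest gap between the genotypes in COLD among the 3 macrophage classes. In COLD the Lyve1 and Cd209f cluster held 141 of 326 MAC2 cells in WT and 33 of 122 in KO. The part of this make-up in the gap was not tested. Flt3 in DEND1 was 235 and 185 CPM in WT and 217 and 154 CPM in KO, from 18 and 15 cells at RT. Csf1 in Mast/basophil-like cells was 282 and 609 CPM at RT, 1474 and 1115 in COLD and 309 and 643 with CL in the C57 mice, with COLD highest, from at most 40 counts per library and with no test. In the Adrb1 line Csf1 went the other way in these cells, from 1379 CPM at RT to 716 in COLD in WT and from 2397 to 1049 in KO.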
